A study of Mus musculus with 2 samples.

Results

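Macrophages of the dorsal root ganglion were described here as the barcodes that carried the mRNAs of the complement protein C1q and few neuronal or satellite glial transcripts. A barcode is the tag that marks 1 droplet, and a UMI (unique molecular identifier) marks 1 captured mRNA molecule. A barcode counted as a macrophage when it had at least 500 genes, under 20% mitochondrial UMIs, under 25 UMIs per 10000 from the neuronal genes Uchl1, Tubb3, Snap25 and Stmn2 together, under 40 per 10000 from the satellite glial gene Fabp7, and at least 5 UMIs and 20 per 10000 from C1qa, C1qb and C1qc together. In all, 339 of 19619 kept barcodes met the rule, 151 of 8329 in replicate 1 and 188 of 11290 in replicate 2. They made up 3.40% of the 4440 barcodes under the neuronal limit in replicate 1 and 4.17% of 4510 in replicate 2, with 95% intervals of 2.89 to 3.98 and 3.60 to 4.79 by the exact Clopper-Pearson method. These intervals and the others below cover counting error only.

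The ganglia came from lumbar levels 4 to 5 of adult wild-type mice aged 8 weeks, and both libraries belong to the acetone-ether-water (AEW) group, in which solvent and water treatment dries the skin and makes mice scratch. The series title sets itch against pain, but every sample used here is AEW, so no treatment could be compared with another. The labels give the cell type as neuron for the whole dissociated ganglion, and the barcodes described here carried macrophage genes instead. Nothing in the labels says that the 2 libraries came from separate animals, so spread between them may be technical. Ganglia were dissociated at 37 °C with the enzymes Liberase and papain, and the cells entered the 10x Genomics 3' version 3.1 droplet assay.

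Ganglion macrophages lie around sensory neuron cell bodies, satellite glia and blood vessels. Like other tissue macrophages they depend on the receptor CSF1R and the transcription factor PU.1, clear debris through scavenger and Fc receptors and the lysosome, and present antigen on MHC class II. They can also release chemokines, cytokines and lipid mediators, several of which are known to act on sensory neurons.

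The whole libraries held 113251556 UMIs in 8818 barcodes and 102347251 UMIs in 11767 barcodes, and the macrophages held 864460 and 947344 of these UMIs. The median macrophage had 5565 UMIs and 2083 genes in replicate 1, and 4607.5 UMIs and 1935.5 genes in replicate 2. Other non-neuronal barcodes, 4289 and 4322, were deeper at medians of 7292 and 6537 UMIs, and held more mitochondrial UMIs (6.40% and 7.28%, against 2.08% and 3.63% in macrophages). The libraries shared 24 barcode sequences, of which 0 marked a macrophage in both. The libraries stood apart in several gene lists within macrophages, among them heat shock, interferon response and immediate early genes and single chemokines, so every value below is given for replicate 1 first and replicate 2 second.

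The limits of the rule bear on how many macrophages were found. C1q UMIs passed both C1q limits in 306 and 418 kept barcodes, and 145 and 215 of these stayed out because they carried more neuronal UMIs than allowed, while 10 and 15 stayed out for Fabp7 alone. The barcodes held back by the neuronal limit had medians of 1922 and 3450 UMIs, 50.2 and 36.4 neuronal UMIs per 10000, and 106 and 107 C1q UMIs per 10000. The lowest macrophage had 26.7 and 22.5 C1q UMIs per 10000, and the nearest barcode below the limit had 16.3 and 17.4, while the median macrophage had 146 and 124. Among satellite glia, which should lack C1q, 2.53% and 4.16% of barcodes held at least 1 C1q UMI.

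Some macrophage barcodes also carried genes of another cell type above a limit set for this check. This held for 11 of 151 and 19 of 188, with Schwann cell genes in 7 and 5, red cell genes in 1 and 6, endothelial genes in 2 and 4, satellite glial genes in 0 and 4, fibroblast genes in 0 and 2, and mural genes in 1 and 1. These barcodes were deeper, with medians of 9960 and 6460 UMIs against 5431 and 4557 in the remaining 140 and 169, and 7 and 12 of them had a doublet score among the highest of their library. Counts that move without them are given beside the result. The macrophage rule already limits the satellite glial gene Fabp7, so the satellite glial count of 0 and 4 is bounded by that selection. Monocyte genes were not part of the check. Summed markers of neurons stood at 3497 and 3864 CPM (UMIs per 1000000 UMIs) in macrophages against 2329 and 2693 CPM in other non-neuronal barcodes, and those of red cells at 2242 and 7776 CPM against 18334 and 15682 CPM. The neuron markers include Uchl1, Tubb3, Snap25 and Stmn2, which the rule limits in both groups, so that part of their sum is bounded by the selection. The part of free RNA in these levels was not tested.

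All 14 fixed macrophage markers were at least 2-fold higher in macrophages than in other non-neuronal barcodes in both libraries. This contrast contains the genes that chose the barcodes, so its values are a description and carry no test. Levels are CPM, the UMIs of a gene per 1000000 UMIs summed over the barcodes of a group. Over all 7057 genes that could be judged by the 2-fold rule with a floor of 20 CPM, 11.3% (798) were higher and 17.4% (1227) were lower in macrophages, and the median log2 difference was -0.17.

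Csf1r, the receptor for the growth factors CSF1 and IL-34, stood at 1234 and 952 CPM in macrophages against 4.13 and 4.51 CPM in the other barcodes, a log2 difference of 7.97 ± 0.36 (SD, n = 2 libraries). Cx3cr1, the fractalkine receptor, stood at 1128 and 512 CPM against 1.93 and 2.55 CPM, and Aif1, which encodes the actin-binding protein IBA1, at 1002 and 540 CPM against 3.98 and 4.48 CPM. Adgre1, which encodes F4/80, stood at 512 and 380 CPM against 1.41 and 2.02 CPM. All 4 genes separated the groups in both libraries, and within macrophages all 4 had lower CPM in replicate 2, Cx3cr1 and Aif1 the most.

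Of 15 macrophage transcription factors at the floor, 11 were higher in macrophages and 0 lower, with a median log2 difference of 2.77. Spi1, which encodes PU.1, stood at 313 and 344 CPM against 6.78 and 9.45 CPM. Mef2c, a MADS-box factor, stood at 569 and 447 CPM against 96.8 and 101 CPM. Maf and Zeb2 met the rule in neither direction, with Maf at 1316 and 512 CPM against 351 and 262 CPM. Sall1, which marks microglia of the central nervous system, had 0 UMIs in both libraries, which allows up to 3.47 and 3.17 CPM.

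Among receptors for growth factors, chemokines and complement fragments, 14 of 16 were higher. C3ar1, the receptor for the complement fragment C3a, stood at 360 and 537 CPM against 0.722 and 1.89 CPM, and C5ar1, the receptor for C5a, at 140 and 492 CPM against 2.51 and 3.98 CPM. Ccr2, which brings monocytes to inflamed tissue, stood at 227 and 147 CPM against 6.81 and 7.26 CPM.

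**Figure D1:**
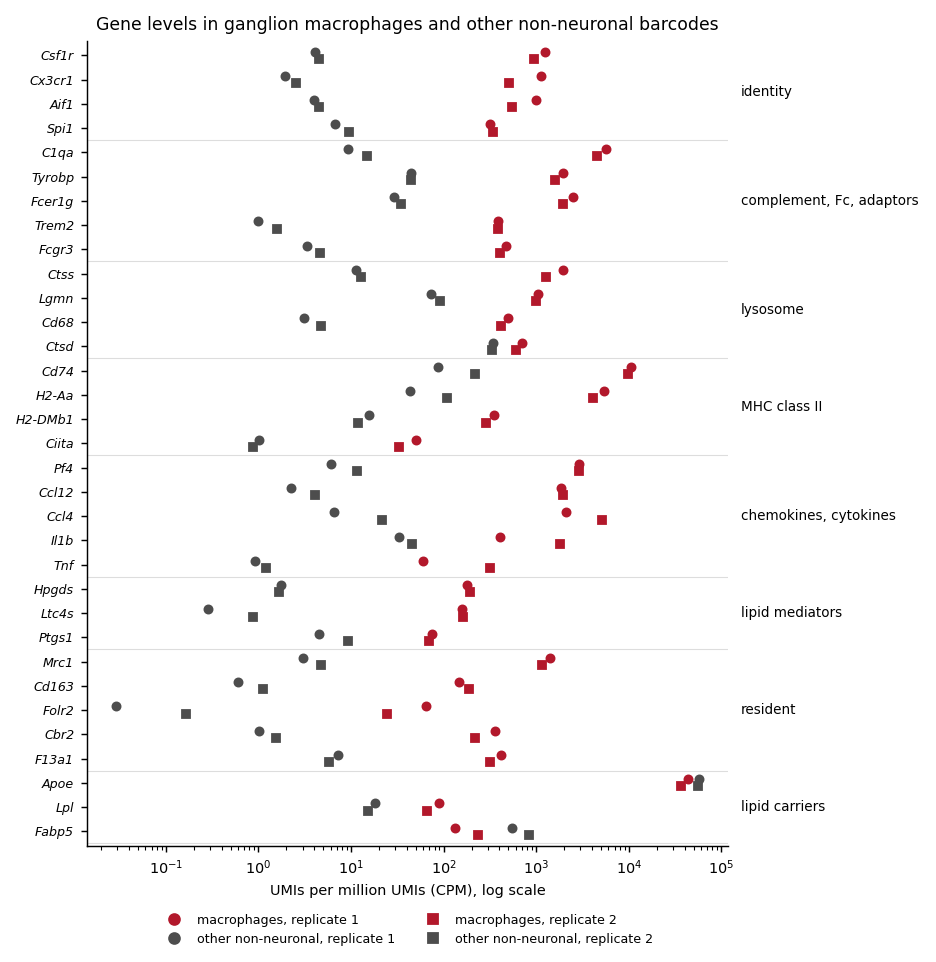
Levels of 33 genes, grouped by role, as CPM on a log axis; red points are macrophages and grey points other non-neuronal barcodes, with circles for replicate 1 and squares for replicate 2. Nearly all pairs stand far apart, while Apoe lies higher in the other barcodes (57139 and 55959 CPM) than in macrophages (43304 and 36552 CPM).

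The C1q genes chose the barcodes and lie next to each other in the genome, on the minus strand of chromosome 4 of GRCm38, within 18675 bases: C1qb at chr4:136880129-136886187, C1qc at chr4:136889804-136893065 and C1qa at chr4:136895917-136898803 (GENCODE release M21). C1qa stood at 5679 and 4545 CPM against 9.21 and 14.8 CPM, C1qb at 5304 and 4162 CPM against 8.11 and 12.1 CPM, and C1qc at 3484 and 2745 CPM against 6.52 and 7.96 CPM. These 3 proteins assemble into C1q, which starts the classical complement pathway.

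Promoters of genes higher in macrophages held the letters AGGAAGT, a core of the sites of PU.1 and other ETS factors, more often than promoters at large. Searched on both strands of RefSeq windows from 250 bases before to 50 after each start site (GRCm38.p6), the motif occurred in 9.35% of all 32851 windows and in 18.0% of the 835 windows of the higher genes, of which 628 of 798 matched by symbol. It occurred in 6.55% of the 1237 windows of the lower genes and in 8.49% of the 5321 windows of genes in neither group. The longer form GAGGAAGT, which contains the first, occurred in 3.20%, 7.19%, 2.51% and 2.80% of the same sets. The AP-1 letters TGAGTCA occurred in 5.20% of all windows and 4.43% of those of the higher genes, and the C/EBP letters TTGCNNAA in 10.8% and 10.9%. In genes lower in macrophages and in neither group, the AP-1 letters occurred in 4.12% and 3.40% of windows and the C/EBP letters in 8.49% and 7.95%. A match is a description of the letters in a window, not a bound site.

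Below are the promoters of 2 C1q genes and of 2 further genes that stood far above the other barcodes, Pf4 (chr5:90772435-90773383, plus strand) and Ctss (chr3:95526786-95556403, plus strand), shown because each holds 1 match. Each run goes from 250 bases before the start site to 10 bases after it, and the capitals mark the motif, which reads ACTTCCT here because it lies on the other strand. The start sites are those of RefSeq, and for C1qb and C1qc they differ from the GENCODE gene starts given above. Positions counted from the GENCODE starts would differ for these 2 genes. The windows are chr4:136886191-136886450 (C1qb), chr4:136892905-136893164 (C1qc), chr5:90772185-90772444 (Pf4) and chr3:95526536-95526795 (Ctss), and the first capital lies at position -53, -195, -10 and -2 from the start site.
C1qb: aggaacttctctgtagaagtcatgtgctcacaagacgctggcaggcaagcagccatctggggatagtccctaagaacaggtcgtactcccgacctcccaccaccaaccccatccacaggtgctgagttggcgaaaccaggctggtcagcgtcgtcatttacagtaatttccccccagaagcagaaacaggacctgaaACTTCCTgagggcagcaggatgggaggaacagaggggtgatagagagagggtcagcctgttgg
C1qc: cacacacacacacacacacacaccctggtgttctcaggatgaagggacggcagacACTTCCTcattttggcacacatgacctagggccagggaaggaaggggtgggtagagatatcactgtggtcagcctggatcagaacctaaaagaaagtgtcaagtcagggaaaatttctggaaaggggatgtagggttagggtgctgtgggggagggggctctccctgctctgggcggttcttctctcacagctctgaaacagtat
Pf4: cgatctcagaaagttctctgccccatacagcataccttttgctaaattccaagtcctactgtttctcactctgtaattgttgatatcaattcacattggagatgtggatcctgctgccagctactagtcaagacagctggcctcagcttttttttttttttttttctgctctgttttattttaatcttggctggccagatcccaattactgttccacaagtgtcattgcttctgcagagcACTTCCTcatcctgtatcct
Ctss: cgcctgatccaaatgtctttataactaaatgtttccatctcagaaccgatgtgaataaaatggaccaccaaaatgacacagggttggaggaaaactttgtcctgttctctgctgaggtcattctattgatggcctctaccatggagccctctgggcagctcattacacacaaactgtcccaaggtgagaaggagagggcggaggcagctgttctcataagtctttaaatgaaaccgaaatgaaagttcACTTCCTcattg

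Fc receptors and immune receptor adaptors were higher throughout: 14 of 14 at the floor, with a median log2 difference of 6.25. Fcer1g, the Fc receptor gamma chain, stood at 2488 and 1922 CPM against 28.9 and 34.9 CPM, and Tyrobp, the adaptor DAP12, at 1967 and 1598 CPM against 44.9 and 43.8 CPM. Trem2, the lipid-sensing receptor that signals through DAP12, stood at 389 and 391 CPM against 0.981 and 1.59 CPM. Fcgr1, the high-affinity receptor for IgG, stood at 423 and 225 CPM against 1.07 and 0.696 CPM. In the complement list 9 of 11 were higher, but these contain C1qa, C1qb and C1qc, whose calls follow from the rule that chose the barcodes. Vsig4, a complement receptor of some resident macrophages, had 0 UMIs in both libraries.

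Among scavenger and efferocytosis receptors and ligands, 9 of 13 were higher and 1 lower. Mrc1, the mannose receptor CD206, stood at 1406 and 1167 CPM against 3.03 and 4.74 CPM, and after every barcode was thinned to 1000 UMIs it was found in 65.3% and 58.5% of macrophages against 0.0920% and 0.224% of satellite glia (94.7% and 92.0% of macrophages before thinning). Cd163, the receptor for haemoglobin bound to haptoglobin, stood at 147 and 186 CPM against 0.606 and 1.13 CPM. Gas6, a bridging ligand for the receptors that take up dying cells, stood at 261 and 255 CPM against 64.8 and 79.3 CPM. Mfge8, another bridging ligand, was the lower member, and Marco and Havcr1 had at most 1.16 CPM.

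Lysosomal genes followed the same direction in 14 of 20, with 0 lower and a median log2 difference of 2.25. Lyz2, which encodes lysozyme, stood at 6420 and 7823 CPM against 163 and 200 CPM, a log2 difference of 5.29 ± 0.01 (SD, n = 2 libraries). Ctss, a cathepsin that trims the MHC class II invariant chain, stood at 1932 and 1270 CPM against 11.4 and 12.7 CPM. The protease genes Ctsb, at 2169 and 1888 CPM against 353 and 389 CPM, and Lgmn, at 1040 and 982 CPM against 72.5 and 91.4 CPM, were also higher, while Cst3, an inhibitor of cathepsins, met the rule in neither direction.

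Iron and haem genes were mostly higher, 7 of 10. Hmox1, which breaks down haem, stood at 539 and 473 CPM against 19.1 and 38.2 CPM, Ftl1, the ferritin light chain, at 4921 and 7370 CPM against 947 and 1191 CPM, and Blvrb, a biliverdin reductase, at 445 and 354 CPM against 120 and 103 CPM. Lcn2, which binds bacterial iron carriers, was lower at 4.63 and 9.50 CPM against 107 and 103 CPM.

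The lipid list divided: 4 of 15 were higher (Trem2, Abca1, Plin2 and Lpl), 3 lower (Cd9, Fabp5 and Apoc1) and 8 in neither, with a median log2 difference of -0.03. Apoe, which carries lipids between cells, stood at 43304 and 36552 CPM in macrophages against 57139 and 55959 CPM in the other barcodes. Satellite glia had 93930 and 90982 CPM of it and endothelial barcodes 1740 and 1805 CPM, so macrophages lay between them. Monocytes had 4401 and 9124 CPM and neutrophils 7682 and 9158 CPM in the same libraries. Gpnmb, a marker of lipid-loaded macrophages, had 0 and 3.17 CPM, and with Fabp7-high barcodes left out of the other barcodes 4 of 14 lipid genes were higher and 0 lower.

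MHC class II genes were higher in all 7 at the floor, with a median log2 difference of 6.00. Cd74, the invariant chain, stood at 10653 and 9856 CPM against 86.8 and 216 CPM, and H2-Aa, the alpha chain of I-A, at 5383 and 4107 CPM against 43.7 and 108 CPM. H2-DMb1, part of the peptide exchange factor, stood at 349 and 289 CPM against 15.4 and 11.7 CPM, and Ciita, the transactivator of the class II genes, at 49.7 and 32.7 CPM against 1.01 and 0.862 CPM. The members higher in macrophages thus ran from the transactivator to the peptide loading factor.

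Among MHC class I and costimulation genes 5 of 9 were higher and 0 lower. With Fabp7-high barcodes left out of the other barcodes, 1 of 9 was higher and 0 lower. H2-D1 stood at 1827 and 1631 CPM against 686 and 766 CPM, and B2m, the class I light chain, at 3373 and 1270 CPM against 1065 and 688 CPM, which missed 2-fold in replicate 2. Cd86, a costimulatory ligand for T cells, stood at 186 and 316 CPM against 1.36 and 2.65 CPM.

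Chemokines were mostly higher in macrophages: 13 of 17 were higher and 1 lower, with a median log2 difference of 5.34. Pf4 (CXCL4) stood at 2906 and 2913 CPM against 6.12 and 11.5 CPM, and Ccl12, a ligand of CCR2, at 1845 and 1946 CPM against 2.25 and 4.08 CPM, and both were nearly equal in the libraries. Ccl4, an inflammatory chemokine, stood at 2119 and 5088 CPM against 6.58 and 21.5 CPM, and Cxcl2, which draws neutrophils, at 1027 and 4886 CPM against 4.76 and 29.0 CPM. Ccl2, another ligand of CCR2, stood at 898 and 3999 CPM against 18.6 and 180 CPM. The inflammatory members were thus higher in macrophages in each library while their own level differed between libraries. Cxcl12, the ligand of CXCR4, was lower at 72.9 and 30.6 CPM against 387 and 245 CPM.

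In the cytokine and growth factor list 7 of 11 were higher and 1, Vegfa, lower. Il1b, which encodes interleukin-1 beta, stood at 404 and 1789 CPM against 32.8 and 45.6 CPM, and Tnf at 60.2 and 315 CPM against 0.924 and 1.19 CPM. Within the other barcodes, Il1b stood at 1030 and 287 CPM in monocytes and at 956 and 365 CPM in neutrophils. Both groups thus exceeded macrophages in replicate 1 and lay below them in replicate 2. Tnf was lower in both groups, at 43.0 and 20.8 CPM in monocytes and 39.7 and 6.77 CPM in neutrophils. Igf1, a growth factor, stood at 236 and 190 CPM against 27.7 and 26.2 CPM, and Tgfb1 at 119 and 141 CPM against 23.7 and 29.7 CPM. Il12b, a subunit of interleukin-12, had 0 UMIs in both libraries.

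Enzymes and receptors of lipid mediators were higher in 10 of 12 genes of their list and lower in 1, with a median log2 difference of 3.91. Hpgds, the haematopoietic prostaglandin D synthase, stood at 177 and 191 CPM against 1.76 and 1.66 CPM, and Ltc4s, the leukotriene C4 synthase, at 157 and 160 CPM against 0.289 and 0.862 CPM. Alox5ap, which presents arachidonic acid to 5-lipoxygenase, stood at 315 and 229 CPM against 17.8 and 19.3 CPM, and Tbxas1, the thromboxane synthase, at 89.1 and 66.5 CPM against 0.404 and 0.597 CPM. Ptges, an inducible prostaglandin E synthase, was lower, at 1.16 and 1.06 CPM against 31.2 and 34.3 CPM, and Alox15 had 0 UMIs.

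Innate sensors and purine receptors completed the picture. Of 14 Toll-like receptor and adaptor genes 12 were higher, among them Cd14, the co-receptor for lipopolysaccharide, at 500 and 1560 CPM against 14.3 and 37.4 CPM, and Tlr2 at 145 and 265 CPM against 6.12 and 4.58 CPM. Cd14 stood at 281 and 466 CPM in monocytes and at 493 and 247 CPM in neutrophils, so in replicate 1 neutrophils were close to macrophages. Of 9 purinergic and lysophospholipid receptors 6 were higher: P2ry6, a receptor for UDP, stood at 208 and 188 CPM against 0.722 and 1.43 CPM, and Gpr34, a receptor for lysophosphatidylserine, at 222 and 147 CPM against 0.548 and 0.829 CPM.

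Genes used as microglial markers were higher in 9 of 11, with Sparc lower at 379 and 391 CPM against 3977 and 3574 CPM. Fcrls, an Fc-receptor-like gene, stood at 1045 and 832 CPM against 1.76 and 2.88 CPM. Sall1 and the fructose transporter Slc2a5 had 0 UMIs. Of 15 listed genes of resident and perivascular macrophages 10 reached the floor, and all 10 were higher. Among them were Mgl2, a C-type lectin, at 698 and 565 CPM against 1.91 and 7.73 CPM, F13a1, a coagulation factor subunit, at 416 and 320 CPM against 7.22 and 5.77 CPM, and Cbr2, a carbonyl reductase, at 360 and 220 CPM against 1.01 and 1.56 CPM. Lyve1, another gene of resident macrophages, was found in only 3.97% and 2.66% of macrophages.

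The nearest groups in these libraries were monocytes (29 and 28 barcodes) and neutrophils (46 and 43), each chosen by their own genes. Tyrobp did not separate the 3 groups, with 1967 and 1598 CPM in macrophages, 1818 and 1715 CPM in monocytes and 1730 and 1336 CPM in neutrophils. Pf4 had 0 UMIs in monocytes and neutrophils of both libraries, and Mrc1 stood at 0 and 16.7 CPM in monocytes. Csf1r was higher in macrophages than in monocytes (1234 and 952 against 185 and 117 CPM), as were Cx3cr1 (1128 and 512 against 79.5 and 79.1 CPM) and Cd74 (10653 and 9856 against 1182 and 1195 CPM). Plac8, which was used to choose monocytes, stood at 3205 and 1906 CPM in monocytes against 2.31 and 6.33 CPM in macrophages. The monocyte gene Chil3 had 0 UMIs in macrophages, and Ly6c2 stood at 0 and 1.06 CPM.

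**Figure D2:**
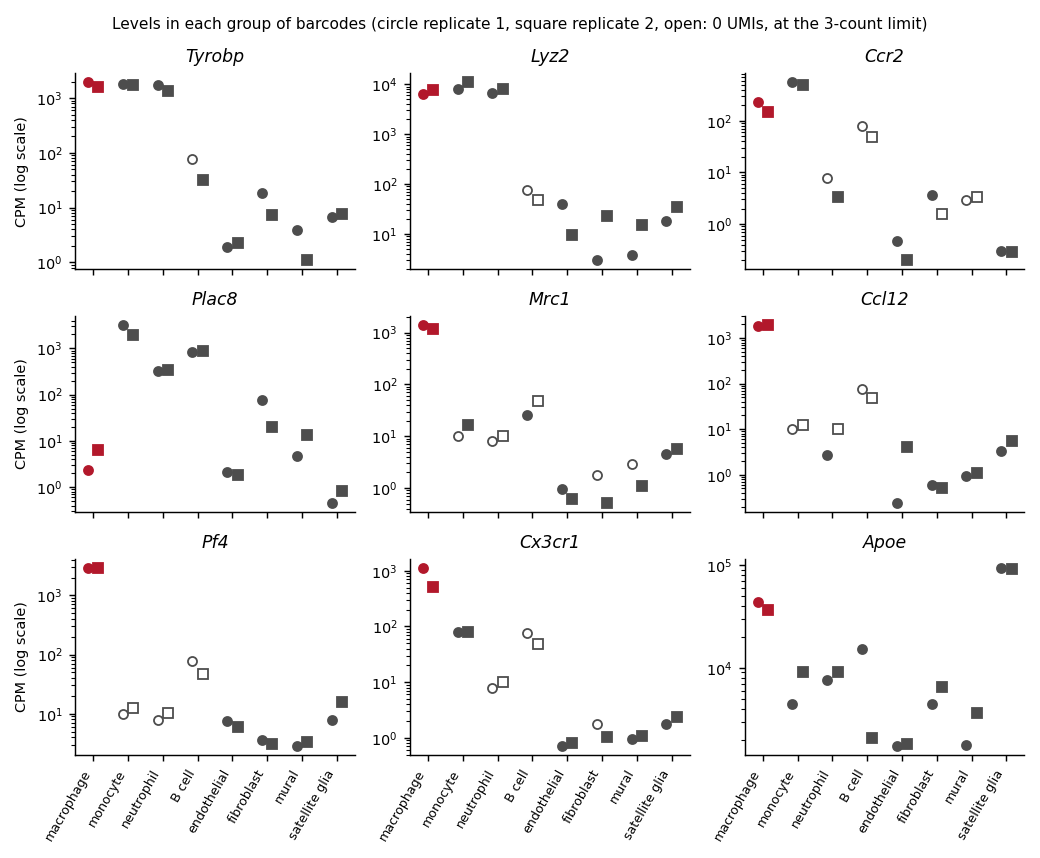
Levels of 9 genes in 8 groups of barcodes, as CPM on a log axis; circles are replicate 1, squares replicate 2, and open points mark 0 UMIs drawn at the limit of 3 counts. Tyrobp and Lyz2 are alike in macrophages, monocytes and neutrophils, while Pf4, Mrc1 and Ccl12 are high in macrophages alone of the groups drawn.

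Markers of other blood cells in macrophages were mostly near 0, with exceptions, among them the red cell markers given above. Of the B cell markers 2 reached the floor, Ighm and Cd79b, and both were higher in macrophages than in the other barcodes. Ighm, the immunoglobulin heavy chain of B cells, stood at 258 and 188 CPM in macrophages against 3306 and 2620 CPM in B cells, 162 and 112 CPM in monocytes, and 5.27 and 3.82 CPM in endothelial barcodes, while the B cell gene Ms4a1 had 0 UMIs in macrophages. Siglech, used to mark plasmacytoid dendritic cells and microglia, stood at 79.8 and 52.8 CPM, while the dendritic cell genes Xcr1 and Ccr7 had 0 UMIs. Summed T and NK cell markers reached 0 and 4.22 CPM. Calca, which encodes the neuropeptide CGRP and should come from neurons, stood at 549 and 836 CPM in macrophages, 384 and 619 CPM in neutrophils and 327 and 516 CPM in satellite glia. It was present in each of the 8 groups, and its part in macrophages as free RNA was not tested.

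Outside the fixed lists, the genes with the largest ratios were also genes of myeloid cells. Ms4a7, a membrane protein of macrophages, led with 907 and 721 CPM against 1.24 and 2.12 CPM (ratios of 731 and 340). Lilra5, a leukocyte immunoglobulin-like receptor, followed at 150 and 111 CPM against 0.433 and 0.497 CPM. Gpr183, the receptor for oxysterols that guides immune cell movement, stood at 303 and 254 CPM against 0.808 and 2.22 CPM, and Pld4 at 363 and 310 CPM against 4.53 and 4.94 CPM. The other 11 were Bcl2a1b, Ms4a6d, Ifi207, Ms4a6b, Gpr65, Pou2f2, Cd84, Slamf9, Evi2a, Cd33 and Nckap1l, the last with ratios of 58.7 and 55.2. Bcl2a1b, Ifi207 and the Ms4a6 genes have close copies, so reads could be split among them.

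The genes lowest in macrophages were Bcan, Atp1b2, Lgr4, Sfrp5, Postn, Wnt6, Bgn, Acsbg1, Rdh5 and Ptprz1. Bcan, a proteoglycan of glia, stood at 9.25 and 14.8 CPM in macrophages against 375 and 408 CPM, and Ptprz1, a receptor phosphatase of glia, at 11.6 and 26.4 CPM against 528 and 459 CPM. Satellite glia made up 2175 of 4289 and 2234 of 4322 of the other barcodes. With Fabp7-high barcodes left out of the other barcodes, 797 of the 1227 lower genes kept their call.

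Several programs did not set macrophages apart from the other barcodes. Oxidative phosphorylation genes met the rule in 0 of 18, with a median log2 difference of -0.46 and Cox4i1 at 921 and 920 CPM against 1268 and 1266 CPM. Cell cycle genes met it in 0 of 3 at the floor, and Mki67, a marker of dividing cells, stood at 18.5 and 9.50 CPM against 12.8 and 15.9 CPM. Of 17 immediate early genes 3 were higher (Klf6, Atf3 and Dusp1) and 1, Nr4a2, lower. With Fabp7-high barcodes left out of the other barcodes, 1 was higher and 2 lower. Of 11 heat shock genes 2 were higher, Hspa1a at 4072 and 887 CPM against 1159 and 178 CPM and Hspa1b at 3196 and 443 CPM against 879 and 142 CPM. With Fabp7-high barcodes left out of the other barcodes, 0 of 11 were higher and 1 lower. Hspa1a stood at 4265 and 54.1 CPM in monocytes and at 4328 and 434 CPM in mural barcodes. Of 14 interferon response genes 1 was higher, Bst2, at 1167 and 432 CPM against 234 and 187 CPM. With Fabp7-high barcodes left out, 0 of 15 interferon genes were higher and 1 lower. In replicate 1 alone 8 of 15 interferon genes would be higher and 0 lower, and in replicate 2 alone 1 of 14 higher and 8 lower, so this list has no single direction.

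Macrophages differed among themselves most in chemokines and MHC class II. For 2531 genes at 50 CPM or more in both libraries, the residual variance compares the spread between barcodes with an expected spread. The latter is that of sampling at each barcode's depth plus a fixed allowance for further spread, which weighs most in highly expressed genes. A value near 1 means no more spread than this. The median was 1.17 and 1.12, and 222 genes exceeded 2 in both libraries (34 when each barcode was thinned to 1000 UMIs). Ccl4 led with 24.4 and 27.4, followed by Cd74 with 23.05 and 31.1, H2-Eb1 with 21.9 and 19.9, H2-Ab1, H2-Aa, and Ccl3 with 16.6 and 19.1. Apoe (20.6 and 15.6), Ccl12 (14.1 and 17.4), Ccl2, Ccl7, Malat1, Fos, Cxcl2, Jun and Hspa1a completed the first 15, and 14 of these stayed among the first 15 after thinning. A single barcode held 19.6% of the Malat1 UMIs in replicate 2 and 23% of the Cxcl2 UMIs in replicate 1. Tyrobp, at 2.23 and 1.58, and Csf1r, at 1.90 and 1.62, varied far less.

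The MHC class II score, the UMIs of Cd74, H2-Aa, H2-Ab1 and H2-Eb1 per 10000, ran from 0 to 872 and 825, with medians of 250 and 147. The 10th percentile was 9.21 and 1.94 and the 90th 578 and 563, and 7 and 16 macrophages had none of these UMIs. The resident score, the UMIs of Mrc1, Lyve1, Cd163, Folr2, Cbr2 and F13a1 per 10000, had medians of 21.3 and 17.3. Macrophages with more of one tended to have less of the other: Spearman's rho was -0.36 and -0.55 across 151 and 188 barcodes, and -0.44 and -0.61 across the 140 and 169 that carried no other cell type's genes. Pearson's r was -0.36 and -0.54. The scores share each barcode's depth as their denominator, and barcodes are not independent replicates, so no p is given. Cut at the medians, 47 and 64 macrophages had a high resident and a low MHC class II score, 47 and 64 the reverse, and 28 and 30 had both scores high.

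**Figure D3:**
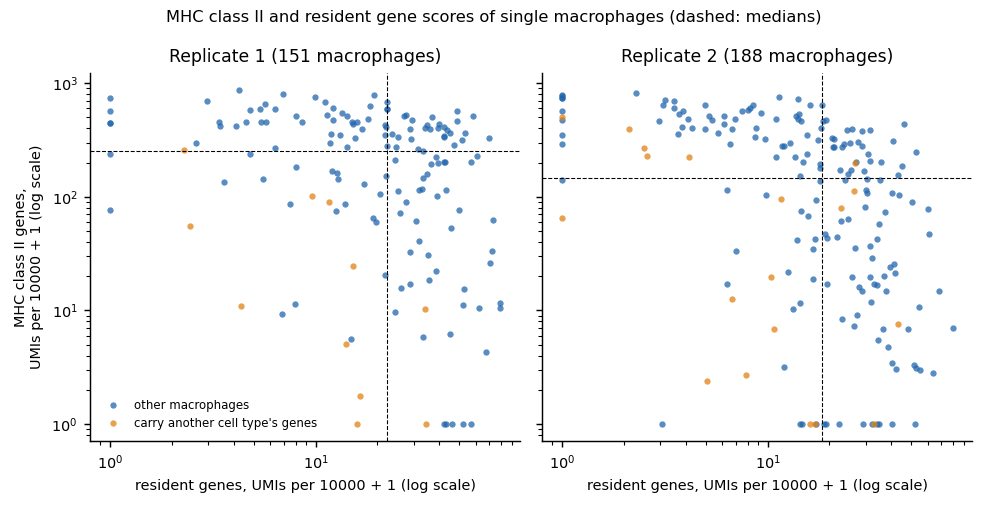
Each point is 1 macrophage barcode, with its resident score on the horizontal and its MHC class II score on the vertical axis (UMIs per 10000 plus 1, log scales) and dashed lines at the library medians. Orange points are the 11 and 19 barcodes that also carry another cell type's genes, and the scores run in opposite directions in both libraries, with rho of -0.36 and -0.55.

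Dividing macrophages at the library median of the MHC class II score showed which other genes went with it. UMIs were summed over the upper and the lower group in each library (75 and 76 barcodes in replicate 1, 94 and 94 in replicate 2) and compared with edgeR's quasi-likelihood test with library as a block and Benjamini-Hochberg adjustment over 6160 genes, at a threshold of 0.05. Without the score genes, 129 genes (2.09%) were higher and 173 (2.81%) lower in the MHC-II-high group. The fit has 4 sums and 1 residual degree of freedom and borrows its spread from all genes, and both groups came from the same libraries, so its p-values speak of these 2 libraries only. Leaving out barcodes that carried other cell types' genes gave 67 and 43 genes, and leaving out the library block gave 0 and 0, with 203 genes at an unadjusted p under 0.05 against 761 with the block.

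Antigen presentation genes outside the score rose with it, 3 of 3. H2-DMb1 stood at 571 and 560 CPM in the MHC-II-high group against 149 and 47.9 CPM in the low group, a log2 difference of 2.75 ± 0.203 (SE, edgeR adjusted p = 6.07e-38). Ciita stood at 78.1 and 58.2 CPM against 24.2 and 9.98 CPM, a log2 difference of 2.15 ± 0.406 (edgeR adjusted p = 1.03e-05). H2-DMa differed by 1.69 ± 0.179 on the log2 scale. DESeq2 called H2-DMb1 (adjusted p = 0.0418) and H2-DMa (adjusted p = 2.60e-05) but not Ciita (adjusted p = 0.738).

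Ccr2 was among the largest differences, at 418 and 260 CPM in the MHC-II-high group against 55.0 and 45.9 CPM, a log2 difference of 2.86 ± 0.236 (edgeR adjusted p = 1.81e-30). It was found in 32 of 75 and 39 of 94 MHC-II-high barcodes and in 11 of 76 and 9 of 94 of the others, and the call held under all 8 alternatives that kept the block. Tnfsf9, which encodes the ligand of the costimulatory receptor 4-1BB, stood at 134 and 112 CPM against 17.6 and 18.0 CPM and held under all 8 as well. Lsp1, a leukocyte actin-binding protein, rose by 2.20 ± 0.252 and Lgals3, which encodes galectin-3, by 1.88 ± 0.244 on the log2 scale, and both also held under 8 of 8. Tnip3, an inhibitor of NF-kappa-B signalling, rose by 2.48 ± 0.240 but had another level in each library, 92.8 and 645 CPM in the high group. Its call was lost by DESeq2 (adjusted p = 0.0845). Plbd1, Slamf8 and Flrt3 completed the first 10 (log2 differences of 2.14, 2.11 and 1.99), and the calls of Slamf8 and Flrt3 were lost without the barcodes of mixed content, where the log2 differences were 1.52 and 2.00.

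Genes of resident and perivascular macrophages went the other way, with 6 of 10 lower in the MHC-II-high group, 0 higher and a median log2 difference of -0.58 (-0.0017 over all genes tested). Without the mixed barcodes the count was 7 of 10. The list includes genes of the resident score, whose inverse relation to the MHC class II score is given above. Their calls are therefore not separate evidence. The calls of Mrc1, Cd163, Cbr2 and F13a1 were lost with no neuronal limit (edgeR adjusted p = 0.0629, 0.169, 0.0741 and 0.106) and by DESeq2 (adjusted p from 0.731 to 1.00). Mrc1 stood at 1148 and 802 CPM in the high group against 1638 and 1494 CPM in the low group (log2 -0.57 ± 0.140), Cd163 at 95.2 and 125 CPM against 193 and 240 CPM (-0.84 ± 0.220), and Cbr2 at 244 and 146 CPM against 464 and 286 CPM (-0.81 ± 0.193). Pf4, at 2122 and 2253 CPM against 3612 and 3503 CPM, differed by -0.57 ± 0.115 and was not called by DESeq2 (adjusted p = 0.211). The iron exporter Slc40a1 was the most reduced of the listed genes that kept their call without the mixed barcodes, at 7.33 and 15.7 CPM against 79.1 and 93.9 CPM (-2.74 ± 0.425, edgeR adjusted p = 1.53e-08), though DESeq2 did not call it (adjusted p = 0.237). Ltc4s was lower too, at 95.2 and 71.7 CPM against 213 and 240 CPM, and was not called by DESeq2 (adjusted p = 0.546).

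Interferon response genes were lower in 5 of 14, namely Ifit1, Ifit2, Ifit3, Rsad2 and Isg15, and 4 of them without the mixed barcodes. All 5 calls were lost with no neuronal limit (edgeR adjusted p from 0.130 to 0.924) and by DESeq2 (adjusted p from 0.165 to 1.00). A per-barcode score of interferon response genes followed the MHC class II score only weakly. Spearman's rho was -0.126 and -0.0264 across 151 and 188 barcodes. Ifit2 was found in 35 and 11 macrophages, and a single barcode held 22 of its 152 and 8 of its 21 UMIs. Ifit1 stood at 92.8 and 11.2 CPM in the high group against 178 and 144 CPM (log2 -1.60 ± 0.267). Among lysosomal genes 6 of 21 were higher and 0 lower (3 and 0 without the mixed barcodes), with Ctss at 2395 and 1507 CPM against 1515 and 1058 CPM (log2 0.72 ± 0.132) and Lyz2 at 7435 and 9212 CPM against 5506 and 6584 CPM (0.59 ± 0.0912). The chemokine list divided, with 5 higher and 5 lower of 17, and 2 higher and 3 lower of 16 without the mixed barcodes. The transcription factor gene Maf fell with the score (log2 -0.60 ± 0.152). Its call was lost with no neuronal limit (edgeR adjusted p = 0.130) and by DESeq2 (adjusted p = 0.776).

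The 10 genes with the largest falls were of another kind. C130074G19Rik, Cyyr1, Flt1, Tm4sf1, Esam, Cldn5, Kdr, Igfbp7, Abcb1a and Itm2a, most of them known from endothelial cells, differed by -3.85 to -7.46 on the log2 scale. In the low group, barcodes of mixed content held 52 of 52 and 96 of 97 Flt1 UMIs and 59 of 60 and 115 of 122 Cldn5 UMIs. All 10 dropped below the filter on low counts when those barcodes were left out, and these barcodes numbered 10 and 13 in the low group against 1 and 6 in the high group. The haemoglobin gene Hbb-bs followed the same pattern and differed by -2.67 ± 0.139 on the log2 scale with them and 0.14 without them.

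**Figure D4:**
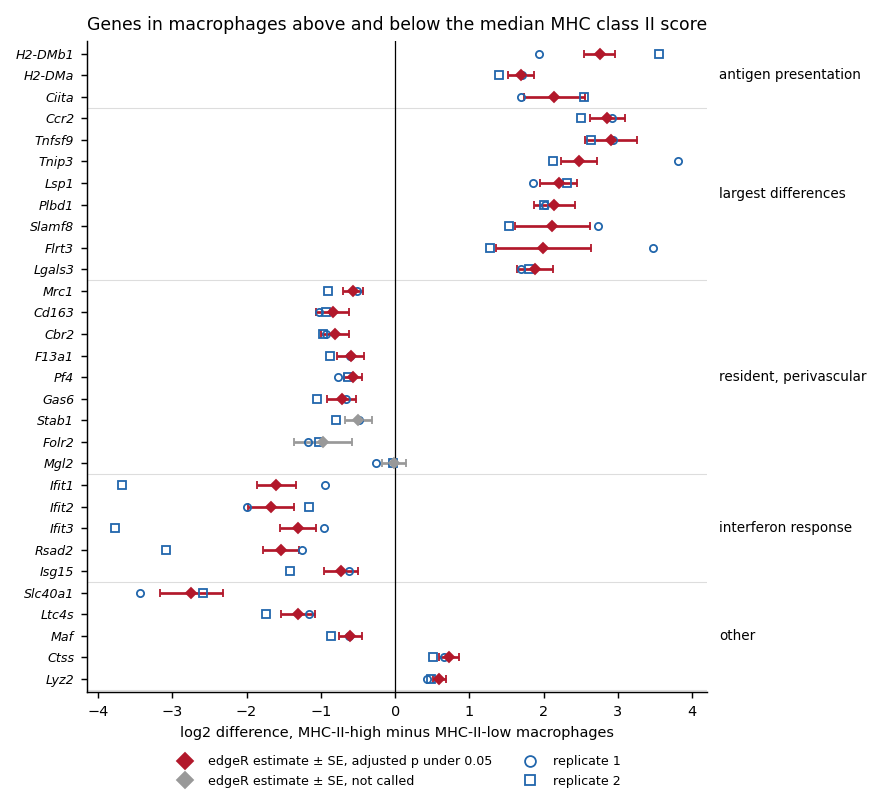
Log2 differences between MHC-II-high and MHC-II-low macrophages; diamonds with bars are edgeR estimates ± SE (red where called at 0.05, grey otherwise), and blue circles and squares are replicates 1 and 2. Antigen presentation genes and Ccr2 lie right of 0 in both libraries, from 1.69 (H2-DMa) to 2.86 (Ccr2), and Mrc1 and Pf4 lie left of 0, both at -0.57.

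The resident score gave the mirror image in part. The 2 scores ran against each other in the same barcodes, so this division is not independent of the one above. Between its upper and lower groups, 119 of 6266 genes (1.90%) were higher and 186 (2.97%) lower by the same test. The counts depended on which barcodes were kept: without the 7 and 20 macrophages of highest doublet score 0 genes were higher and 6 lower, without the mixed barcodes 55 and 67, and without the library block 0 and 0, with 270 genes at an unadjusted p under 0.05 against 862 with the block.

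Resident genes outside the score rose with it in 5 of 5 (4 of 5 without the mixed barcodes), and MHC class II genes were lower in 7 of 7, with a median log2 difference of -1.28. These 7 include the genes of the MHC class II score, so their fall restates the inverse relation of the scores. Pf4 stood at 4391 and 4182 CPM in the high group against 1644 and 1776 CPM (log2 1.25 ± 0.123), and Stab1, a scavenger receptor, at 685 and 431 CPM against 242 and 158 CPM (1.40 ± 0.169). H2-Eb1 stood at 3346 and 1481 CPM against 6651 and 5141 CPM (-1.46 ± 0.137), and Ccr2 at 57.9 and 44.7 CPM against 370 and 238 CPM (-2.63 ± 0.235). The calls of Pf4, Stab1, H2-Eb1 and Ccr2 each held under 7 of 8 alternatives that kept the block. For Pf4, Stab1 and H2-Eb1 the exception left out the highest doublet scores (edgeR adjusted p = 0.0992, 0.0932 and 0.0958), and for Ccr2 it thinned the barcodes (edgeR adjusted p = 0.147). With the fit without the block included, the adjusted p of edgeR or DESeq2 ran from 2.90e-29 to 0.613 for Pf4, from 1.15e-17 to 0.744 for Stab1, from 4.04e-26 to 0.923 for H2-Eb1 and from 3.58e-21 to 0.275 for Ccr2.

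The 10 largest rises with the resident score were of genes with varied roles, and in the fixed lists 3 of 11 complement genes and 1 of 8 iron and haem genes rose (2 of 11 and 0 of 7 without the mixed barcodes). Cp, which encodes the ferroxidase ceruloplasmin, stood at 214 and 228 CPM against 47.1 and 46.0 CPM (log2 2.17 ± 0.245), and C4b, a complement component, at 234 and 96.0 CPM against 34.2 and 34.0 CPM (2.13 ± 0.287). Cd38, an NAD-consuming enzyme, stood at 131 and 159 CPM against 34.2 and 32.0 CPM. Alox5, the 5-lipoxygenase, was found in 15 of 75 and 20 of 94 barcodes of the high group and in 3 of 76 and 4 of 94 of the low group, and Ltc4s stood at 237 and 268 CPM against 89.9 and 64.1 CPM.

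Tslp, which encodes the epithelial cytokine TSLP that can also act on sensory neurons, had the largest rise at 50.4 and 24.6 CPM against 4.28 and 0 CPM (log2 3.93 ± 0.819, edgeR adjusted p = 0.00177). The high group held 20 and 11 Tslp UMIs and the low group 2 and 0, and the call held under 4 of 5 alternatives that tested it. The other genes among the first 10 were Spats2l, Tmem8, Nxpe5, F630028O10Rik and Pla2g2d. Igf1, at 350 and 299 CPM against 139 and 92.1 CPM, and Maf, at 1848 and 770 CPM against 865 and 280 CPM, rose as well.

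Among the largest falls with the resident score, Flt1, Cldn5, Cyyr1, Cxcl12, Tm4sf1, Prom1 and Hbb-bs were again lost without the mixed barcodes. Retnla, a secreted protein of alternatively activated macrophages, rested largely on 1 barcode, which held 145 of its 170 UMIs in the low group of replicate 2. Cxcl9, a chemokine induced by interferon gamma, likewise had 91 of 128 UMIs of the low group of replicate 1 in 1 barcode and 29 of 29 in 1 barcode of replicate 2. Xylt1, the last of the 10, had 0 UMIs in the high group of both libraries.

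The libraries differed in what their macrophages transcribed, 1 library against 1, so the ratios carry counting intervals and no test. Of 3425 genes at 50 CPM or more in either library, the interval of the ratio of replicate 2 to replicate 1 lay above 1 for 23.4% and below 1 for 19.9%, with a median ratio of 1.03. Pf4 (1.00, interval 0.950 to 1.06), Trem2 (1.00, 0.865 to 1.17) and Ccl12 (1.05, 0.986 to 1.13) had intervals that held 1. Cx3cr1 was lower in replicate 2 (0.454, 0.406 to 0.507).

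Chemokines divided between the libraries, with 8 of 17 intervals above 1, 5 below and a median ratio of 1.09, while 5 of 10 cytokines and growth factors lay above 1 and 1 below, and 5 of 9 Toll-like receptor genes above and 0 below. Ccl7 had a ratio of 5.43 (4.97 to 5.93), Cxcl2 of 4.76 (4.43 to 5.12), Ccl2 of 4.45 (4.12 to 4.82), Ccl3 of 3.36 (3.11 to 3.64) and Ccl4 of 2.40 (2.27 to 2.53). Nlrp3, the inflammasome sensor, had a ratio of 7.33 (4.97 to 11.2), Tnf of 5.23 (3.88 to 7.16) and Il1b of 4.43 (3.95 to 4.99). Ccl2 differed in other cells too, from 239 to 1672 CPM in fibroblasts and from 18.2 to 578 CPM in mural barcodes. Il1b went the other way in monocytes, from 1030 to 287 CPM. After thinning to 1000 UMIs, Il1b was found in 14% and 49.5% of macrophages (25.8% and 68.1% before), against 0.0460% and 0.358% of satellite glia.

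Heat shock and interferon response genes were higher in replicate 1, with 11 of 11 and 13 of 13 intervals below 1. Hspa1b went from 3196 to 443 CPM (ratio 0.139, 0.125 to 0.154), and in the other non-neuronal barcodes from 879 to 142 CPM. Ifit2 went from 176 to 22.2 CPM in macrophages (0.126, 0.0758 to 0.200) and from 28.1 to 59.95 CPM in the other barcodes, the opposite direction. Isg15 did likewise, from 260 to 76.0 CPM (0.292, 0.221 to 0.382), while in endothelial barcodes it went from 546 to 870 CPM. The groups within the other barcodes were not alike. Ifit2 rose in endothelial (122 to 301 CPM) and mural barcodes (5.73 to 8.76 CPM). It fell in monocytes (92.7 to 4.16 CPM) and neutrophils (18.5 to 10.1 CPM), and slightly in fibroblasts and satellite glia. Isg15 rose and fell in the same groups, with monocytes going from 334 to 29.1 CPM. MHC class II genes had intervals below 1 in 6 of 6, with Cd74 at 0.925 (0.899 to 0.952). Immediate early genes had 15 of 17 intervals above 1 and 1 below (Jun), with a median ratio of 1.56 against 2.19 for the same genes in the other barcodes. What set the libraries apart, and whether it lay in the mice, the digestion or the handling, cannot be told apart with these samples.

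Of the 8 genes with the largest ratio in each direction, several rested on few barcodes. Rcan1, a regulator of calcineurin, went from 8.10 to 424 CPM and was found in 6 and 86 macrophages, Jdp2, an AP-1 factor, from 9.25 to 153 CPM in 6 and 71, Emp1 from 3.47 to 99.2 CPM in 2 and 42, and Mir155hg, the host transcript of miR-155, from 1.16 to 61.2 CPM in 1 and 38. In contrast, single barcodes held 692 of 771 Meg3 UMIs, 252 of 294 Snhg11 UMIs, 109 of 118 Acta2 UMIs and 446 of 644 Hbb-bt UMIs of replicate 2. In the lower direction, Ifi27l2a went from 1700 to 323 CPM, Ifi206 from 96.0 to 10.6 CPM, Cmpk2 from 90.2 to 8.44 CPM and Hsph1 from 418 to 66.5 CPM, and Gm10076 differed as much in the other barcodes (260 to 40.8 CPM). A single barcode held 37 of 59 Ccl5 UMIs of replicate 1.

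**Figure D5:**
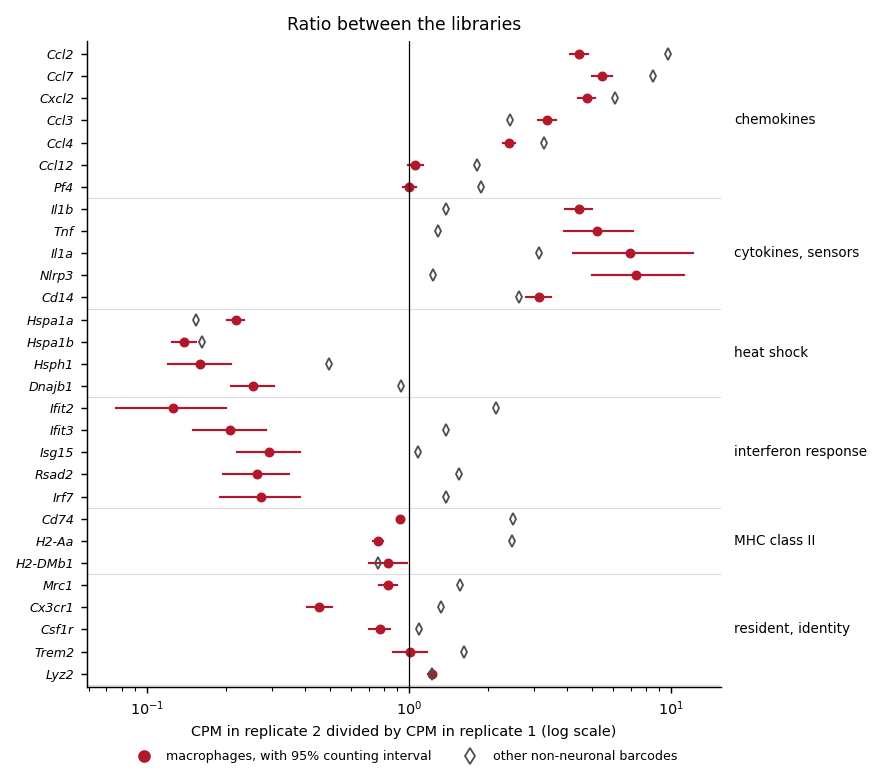
Ratio of CPM in replicate 2 to CPM in replicate 1, on a log axis, for genes grouped by role; red points with lines are macrophages with 95% counting intervals, and open grey diamonds are the other non-neuronal barcodes. Ccl2, Ccl7, Cxcl2, Ccl3, Ccl4 and the cytokines drawn lie right of 1 and heat shock and interferon genes left of 1 in macrophages, while the 5 interferon genes drawn lie right of 1 in the other barcodes (Ifit2 at 2.14).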

How the data were processed

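Per the file headers and the submitters' processing notes, the authors used CASAVA 1.8 and Cell Ranger 5.0.1 on mm10, and the deposited matrices hold raw UMI counts. The deposited barcode and feature files hold other values, names only. Annotation release, cell calling and intron counting: not given in the sources used here. Members and gene lists were chosen with earlier results of these data known.

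Counts were read with Python 3.11.15 (numpy 2.4.6, pandas 2.3.3, scipy 1.17.1) and summed per library and group. A gene was higher or lower where CPM differed at least 2-fold in both libraries with 20 CPM on the higher side. Macrophages above and below each score's median were compared with edgeR 4.0.16 in R 4.3.3 (TMM factors, filterByExpr, quasi-likelihood test, library as a block), and with DESeq2 1.42.0 as an alternative. The replicate number is the library, so both groups of a library are paired by construction. On simulated data with 2-fold and 4-fold changes, the resident comparison (6238 genes) recovered 77% and 97% of changed genes, and the MHC class II comparison (6127 genes) 72% and 99%, with 7 false calls of 181 and 11 of 182. Only genes at 50 CPM or more were changed, and no mixed barcodes were simulated. Every simulated gene had the same spread beyond counting, and no gene differed between the libraries. These figures therefore do not cover rarer genes, mixed barcodes, genes that rest on few barcodes or differences between libraries. The automatic threshold of Scrublet (scanpy 1.11.5) called 1 and 0 barcodes and so did not work; no doublets were removed, and the 555 and 1020 highest scores, at 0.8% per 1000 barcodes, were left out in an alternative.

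Named were up to 6 genes per list by macrophage level and members at or near 0; 15 higher and 10 lower genes outside the lists at 100 CPM or more; 10 genes per direction in each division; the 15 most variable genes; and 8 per direction between libraries. Other names were added after their values were seen, and some genes that the rule names are not reported here.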

Additional observations from a re-analysis of the deposited data

How the results depend on the processing

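Without a neuronal limit, an alternative chosen after seeing the data, 692 barcodes met the rule. Genes higher and lower in macrophages numbered 1430 and 2005 with no CPM floor and 307 and 385 with a floor of 100 CPM, and ranged from 1039 to 1229 and from 1474 to 1757 with 1 library left out. Genes with residual variance over 2 numbered 34 after thinning. Genes higher and lower with the MHC class II score numbered 10 and 13 by DESeq2, 0 and 0 with no replicate block (library left out of the fit), 75 and 112 between the outer tertiles, 65 and 58 without the highest doublet scores, 15 and 21 after thinning and, in alternatives chosen after seeing the data, 48 and 66 with no neuronal limit and 67 and 43 without barcodes carrying other cell types' genes. With the resident score the same settings gave 13 and 32, 0 and 0, 49 and 68, 0 and 6, 16 and 19, 226 and 231 and 55 and 67. The cause was not tested; tertiles, thinning and left-out barcodes hold fewer UMIs. Of single genes, 8 of 843 values for the MHC class II score reversed: Ccl5 (log2 -0.91) with no neuronal limit, Hbb-bt (0.43), Hbb-bs (0.14), Hba-a1 (0.0075), Hba-a2 (0.50) and Mbp (0.21) without mixed barcodes, and Ccl8 (-1.60, 3.20) and Mbp (0.33, -3.93) without replicate 1 and without replicate 2. For the resident score 6 of 987 reversed: Hspb1 (0.28) and Dnajb1 (0.097) after thinning, Cxcl2 (0.22) and Dcn (-0.24) with no neuronal limit, Hba-a1 (0.0023) without mixed barcodes and Ncmap (1.16, -2.63) without replicate 1 and without replicate 2. Of 2007 single-gene values against the other barcodes, 0 reversed and 462 moved. With 1 library the divisions have no residual degrees of freedom and give values only. At 151 and 188 barcodes, 0 UMIs limits a gene to 3.47 and 3.17 CPM, so rarer transcripts were not detectable at this depth.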
